A study of Drosophila melanogaster with 75 samples.

Results

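Heads of courting male fruit flies (Drosophila melanogaster) were compared, gene by gene, with heads of control males that met no female. The comparison used 10 of the 15 Affymetrix Drosophila arrays of the study, the 5 titled courtship and the 5 titled control, in the values that the authors computed with GC-RMA in R. All males were 5-day-old virgins of the strain isogenized Canton-S, a wild-type laboratory stock. They had been raised in groups at first and were moved to single vials on day 4. Courtship-arm males met a virgin female that had been cauterized and were watched for 20 min. Control-arm males went through the same 20 min with no female, which the design calls a mock exposure. Each array carried total RNA from the heads of its own pool of 20 males, so n is 5 pools per arm. The p-values judge differences between arms against the spread between pools. A label stating that males were kept only if they courted for 70% of the observation stands on both arms, the control arm included, and no pool has a courtship score. Each sample code starts with a letter. The letters A, C, D and H occur in both arms, J only in the courtship arm and F only in the control arm, and the labels do not say what a letter stands for.

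Male courtship in Drosophila is a chain of innate actions guided by smell, taste, sight and touch. It depends on nerve cells that express male forms of fruitless (fru) and doublesex (dsx), transcription factors of the sex determination pathway. The Hairy and Enhancer of split proteins are basic helix-loop-helix repressors that recruit the corepressor Groucho, and the Enhancer of split genes are direct targets of Notch signalling. Shaker (Sh) is a voltage-gated potassium channel that helps end the action potential and sets the firing of nerve cells.

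Values below are log2 intensities unless a fold is named. Of 18769 probe sets that are not array controls, 8932 (47.6%) had a mean of at least 4 over the 10 arrays and were tested. The tissue label held against its markers: the 8 measured neuron and photoreceptor markers averaged between 11.30 and 11.77 on the 10 arrays, while all 16 testis and accessory gland markers on the array averaged 2.06 to 2.55, below the limit for testing. Correlations between arrays ran from 0.978 to 0.996. The log2 ratio of 3' to 5' probe signal, a measure of RNA degradation averaged over 4 control transcripts, stood at 2.48 on control array 1, at 1.94 on control array 2 and at 1.21 on courtship array 2. The other 7 arrays had 1.52 to 1.66. The low mean of courtship array 2 came from its 18S ribosomal pair, at -0.20. Control array 1 also lay apart on the second principal component, at -25.6 against -9.92 to 10.3 for the others.

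No probe set passed the threshold. limma, fitted to all 8932 probe sets with Benjamini-Hochberg adjustment, called 0 (0%) at the 0.05 level. The smallest adjusted p was 0.181, for hry. At an unadjusted p under 0.05 there were 397 probe sets (4.44%), 179 higher (2.0%) and 218 lower (2.44%) in courting males. Differences were small in general: the median standard error was 0.10, and 34 probe sets were higher and 56 lower by more than 0.50. Every courtship array lay above every control array for 32 probe sets (0.358%) and below every control array for 22 (0.246%). In 6 of these 54 the arms were also apart in each of the authors' 5 processings (0.0672% of those tested): hry, E(spl)mbeta-HLH, sug and olf186-M were higher and Sh and OtopLa lower in courting males.

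**Figure D1:**
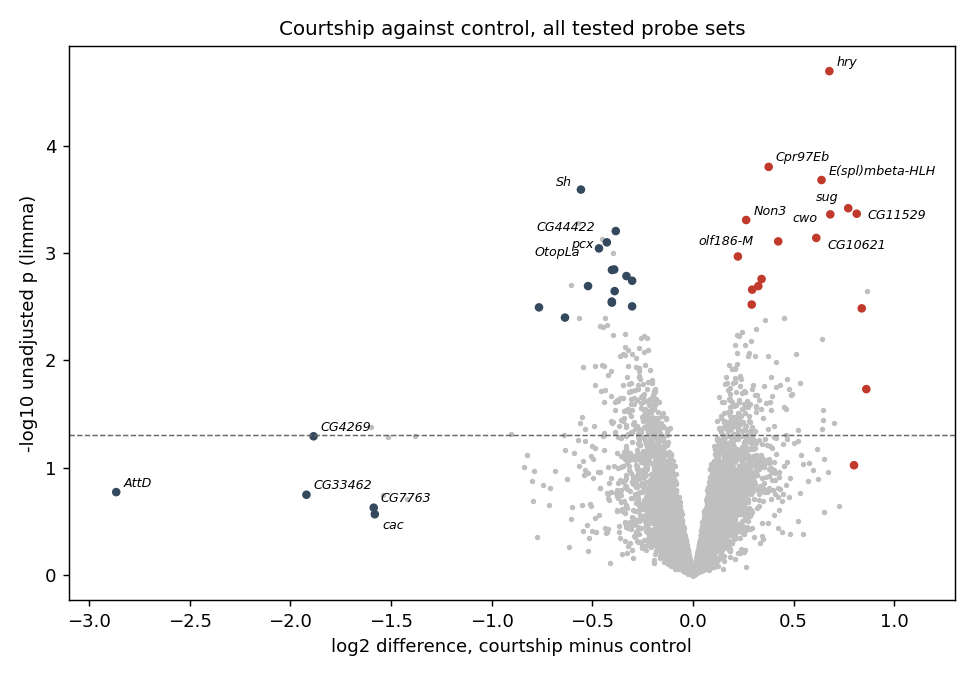
Each point is 1 of the 8932 tested probe sets, placed by its log2 difference (courtship minus control, horizontal axis) and by minus log10 of its unadjusted limma p (vertical axis); the dashed line marks the 0.05 level and coloured points are the leading genes by p or by size. The smallest p belongs to hry, and the differences larger than 1.5, AttD among them, are of genes with a large spread between pools and lie at or below the line.

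The smallest p of all belonged to hry (hairy), a repressor gene on chromosome arm 3L. It read 12.06, 12.45, 12.52, 12.25 and 12.14 on courtship arrays 1 to 5 and 11.49, 11.55, 11.69, 11.69 and 11.60 on control arrays 1 to 5. The lowest courting pool was thus above the highest control pool. The difference was 0.68 ± 0.09 (SE), a 1.60-fold higher level, with an unadjusted p of 2.02e-05 in limma. E(spl)mbeta-HLH (3R), an Enhancer of split repressor, read 7.68, 7.38, 7.65, 7.81 and 7.96 in courting pools and 7.25, 6.90, 7.25, 6.95 and 6.92 in control pools. Again the arms did not overlap, though the gap was small between courtship array 2 and control arrays 1 and 3. It was 0.64 ± 0.12 higher (1.56-fold, limma adjusted p = 0.508).

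cwo (clockwork orange, 3R), a repressor of the circadian clock with the same kind of Orange domain, gave a divided answer. Its dimmer probe set read 7.15 to 7.92 in courting and 6.66 to 7.0 in control pools, 0.68 ± 0.14 higher, whereas its brighter probe set differed by 0.05 ± 0.12. E(spl)m3-HLH, named here after its values were seen, was 0.51 ± 0.16 higher at a low level (5.11 against 4.60), and gro, which encodes Groucho, differed by -0.09 ± 0.09. This list of repressors had 5 measured members, the corepressor gene gro among them. Taking for each gene its brightest probe set, 4 were higher and 1, gro, was lower, with a median of 0.51. Over all 7311 genes 56.4% were higher and the median was 0.02. The list held 3 members higher at an unadjusted p under 0.05, where the background over all genes was 2.16%. It was chosen with earlier results of these data known, so its counts and median are not independent of them and give no separate support. Another 5 members on the array were below the limit for testing. Among 9 measured genes of the Notch pathway itself, such as H and pen-2, 5 were higher and 4 lower, with a median of 0.02 that turned to -0.03 without courtship array 1 and none at an unadjusted p under 0.05.

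**Figure D2:**
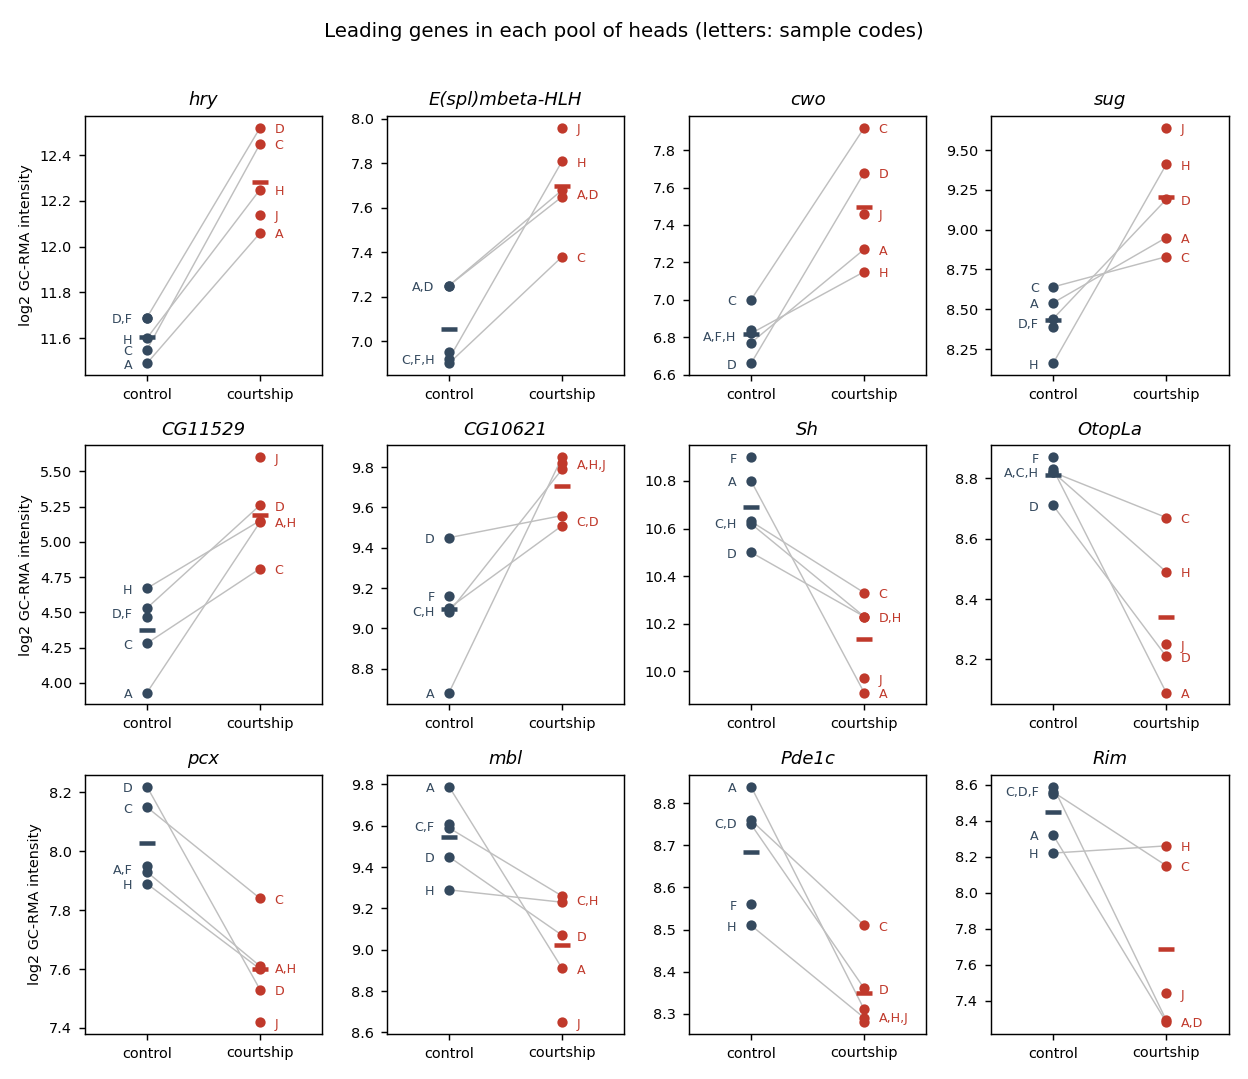
Log2 GC-RMA intensity (vertical axes) of 12 leading genes in each pool, control at left and courtship at right; dots are pools with their code letter, thick bars are arm means, and grey lines join pools with the same letter. For hry the 5 courting pools lie at 12.06 to 12.52 and the 5 control pools at 11.49 to 11.69, while for Rim the arms overlap.

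Other leading genes on the higher side include a transcription factor gene of the sugar response and 2 members of the serine protease family. sug (sugarbabe, 2R), a zinc-finger transcription factor induced by dietary sugar, read 8.95, 8.83, 9.19, 9.41 and 9.64 in courting pools and 8.54, 8.64, 8.44, 8.39 and 8.16 in control pools. Its arms did not overlap, and the difference was 0.77 ± 0.15 (1.71-fold, limma adjusted p = 0.508). CG11529 (3L), 1 of these proteases, read 4.81 to 5.60 against 3.93 to 4.67, close to the limit for testing, and was 0.81 ± 0.16 higher (1.76-fold). CG9377, the other protease gene, read 7.41 to 8.61 against 6.75 to 7.21 and was 0.84 ± 0.22 higher (1.79-fold), with its highest values on courtship arrays 4 and 5. For both proteases the arms were apart.

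CG10621 read 9.51 to 9.85 in courting and 8.68 to 9.45 in control pools (0.61 ± 0.13 higher), and olf186-M read 10.08 to 10.54 against 9.65 to 9.95 (0.42 ± 0.09 higher). Neither gene overlapped between the arms. Smaller differences with narrow spreads were those of Non3, a nucleolar factor of ribosome assembly (0.26 ± 0.05), of Atg14, a subunit of the lipid kinase complex that starts autophagy (0.22 ± 0.05), of Gclm, the modifier subunit of the enzyme that starts glutathione synthesis (0.34 ± 0.08), and of the cuticle protein gene Cpr97Eb (0.38 ± 0.07). The arms were apart for Non3, Atg14 and Cpr97Eb, and barely so for Gclm, whose courtship array 2 and control array 2 both read 7.90 after rounding and differed by 0.001. The 15 leading genes on the higher side were 1.17-fold to 1.79-fold higher. The arms did not overlap for 12 of them, and for 7 of the 15 leading genes on the lower side. Over all tested probe sets these shares were 0.358% on the higher and 0.246% on the lower side. Both counts follow in part from ranking the genes by p.

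Among genes lower in courting males, Shaker led. Its leading probe set (X chromosome) read 9.91, 10.33, 10.23, 10.23 and 9.97 in courting pools and 10.80, 10.63, 10.50, 10.90 and 10.62 in control pools. Every courting pool was below every control pool. The difference was -0.56 ± 0.10, a 1.47-fold lower level (limma adjusted p = 0.508). Sh has 6 tested probe sets and all 6 were lower, the 3 bright ones by -0.56 ± 0.10, -0.45 ± 0.10 and -0.40 ± 0.09 and the 3 dim ones by -0.33 ± 0.26, -0.27 ± 0.38 and -0.20 ± 0.26. Hk (Hyperkinetic), the beta subunit of the Shaker channel, differed by -0.22 ± 0.07 on its dimmer probe set and differed by -0.08 ± 0.08 on its brighter.

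OtopLa, an otopetrin-like proton channel gene, read 8.09 to 8.67 in courting and 8.71 to 8.87 in control pools, a difference of -0.47 ± 0.10 with no overlap; its brighter probe set differed by -0.10 ± 0.12. pcx (pecanex, X), a membrane protein linked to Notch signalling in embryos, differed by -0.43 ± 0.09, with courting pools at 7.42 to 7.84 and control pools at 7.89 to 8.22. Rim, which organises the active zone of the presynaptic terminal, read 7.28, 8.15, 7.29, 8.26 and 7.44 in courting and 8.32, 8.56, 8.59, 8.55 and 8.22 in control pools. Courtship array 4 lay just above control array 5, so the arms overlapped, and 3 courting pools were well below the rest; the difference was -0.77 ± 0.20. Both other probe sets of Rim were lower too, by -0.35 ± 0.12 and -0.47 ± 0.41. Pde1c, a phosphodiesterase stimulated by calcium and calmodulin, differed by -0.33 ± 0.08, and its 2 tested probe sets had the same sign.

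Genes of nerve-cell signalling stood mostly on the lower side. Of 19 measured ion channel genes 18 were lower and 1 was higher in courting males, with a median of -0.21, against 43.6% lower and a median of 0.02 over all genes. At an unadjusted p under 0.05, 6 were lower and 0 higher, where 2.09% of all genes were lower at that p. These 6 were the potassium channel genes Sh, Shab, SK, Shaw and sei, and qvr (quiver), whose protein modulates Shaker. Shab, Shaw, sei and qvr are named after their values were seen. Another probe set of qvr, which varied widely between pools (pooled SD 1.06), differed by -0.09. SK, a potassium channel opened by calcium, was lower on all 3 of its tested probe sets, by -0.26 to -0.38. Leaving out 1 array at a time moved the median between -0.15 (without courtship array 5) and -0.29 (without courtship array 2), with 17 or 18 members lower. The list mean per array ran from 8.26 to 8.71 in courting and from 8.57 to 9.0 in control pools, so the arms overlapped.

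Transmitter receptors and enzymes showed the same sign. Of 22 genes of acetylcholine, GABA and glutamate transmission 21 were lower, with a median of -0.15 and 3 at an unadjusted p under 0.05. Over all genes 43.6% were lower, and 2.09% were lower at that p. The list means per array overlapped, at 8.758 to 9.282 in courting and 8.844 to 9.385 in control pools. The median was -0.10 without courtship array 5 and -0.21 without courtship array 2. The metabotropic GABA receptor gene GABA-B-R3 differed by -0.22 ± 0.08 and read 8.76 to 9.14 in control pools. The kainate-type glutamate receptor gene KaiR1D differed by -0.40 ± 0.17, and the nicotinic receptor gene nAChRalpha2, named after its values were seen, by -0.20 ± 0.09. Of 16 genes of synaptic vesicle release 15 were lower, with a median of -0.09; 4 had an unadjusted p under 0.05, namely stj (straightjacket, the alpha2delta subunit of calcium channels; -0.46 ± 0.13), Rim, the Rab effector gene Rph (-0.21 ± 0.08) and the priming factor gene unc-13 (-0.26 ± 0.10), the last named after its values were seen. The other 12 members had an unadjusted p above 0.05, such as the vesicle fusion gene Snap25 (-0.05 ± 0.10), also named after its values were seen. Without courtship array 5 the median of the release list was -0.04, and without control array 1 it was -0.17, with 11 to 16 members lower over all such omissions. The array means of that list overlapped, at 10.569 to 11.065 in courting and 10.752 to 11.117 in control pools.

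Other neuronal lists were also mostly lower, where 43.6% of all genes were lower. Of 13 learning and cyclic AMP genes 10 were lower (median -0.14, none at an unadjusted p under 0.05), among them the adenylyl cyclase gene rut (-0.51 ± 0.26) and the Ras regulator gene Nf1, lower on its 3 probe sets by -0.18 to -0.31. Without courtship array 5 the median of this list was -0.09, and 10 to 13 members were lower with 1 array left out. Of 16 phototransduction genes 14 were lower, with a small median of -0.06 (-0.11 without courtship array 2, -0.04 without courtship array 5), and the diacylglycerol lipase gene inaE differed by -0.21 ± 0.08. Of 19 monoamine genes 13 were lower with a median of -0.10. Ddc, which makes dopamine and serotonin from their precursors, differed by -0.40 ± 0.12, the serotonin receptor gene 5-HT7 by -0.44 ± 0.20, and the tyrosine decarboxylase gene Tdc1 was higher by 0.24 ± 0.09. The monoamine median was -0.02 without courtship array 5. Neuropeptide genes went both ways, with 11 higher and 15 lower of 26 and a median of -0.03 that turned to 0.03 without control array 1; CCHa2, a gut and fat body peptide hormone, was higher by 0.26 ± 0.09 and Dh44, a diuretic hormone, lower by -0.30 ± 0.14.

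RNA-binding and splicing factors of nerve cells were lower in 14 of 15 genes, with a median of -0.11 and 3 at an unadjusted p under 0.05. Over all genes 43.6% were lower, and 2.09% were lower at that p. The list means per array overlapped, at 10.203 to 10.665 in courting and 10.36 to 10.778 in control pools. The median was -0.08 without courtship array 5, -0.18 without courtship array 2 and -0.17 without control array 1. With 1 array left out, 12 to 15 members were lower. mbl (muscleblind), a splicing regulator, differed by -0.52 ± 0.13 on its leading probe set, with courting pools at 8.65 to 9.26 and control pools at 9.29 to 9.79. Of its 5 tested probe sets 3 were lower and 2 higher. B52, an SR splicing factor, was lower on all 4 of its probe sets, by -0.07 to -0.44, and Hrb98DE, an RNA-binding protein of the hnRNP class, on both, by -0.10 and -0.39. The third member at that p was nonA, at -0.21 ± 0.09, named after its values were seen. Outside that list, the kinase gene Doa, whose product phosphorylates SR proteins, differed by -0.30 ± 0.07, and Acn (Acinus), an RNA-processing protein, by -0.40 ± 0.09. Doa's other probe set, which is dim, differed by 0.01 ± 0.24.

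**Figure D3:**
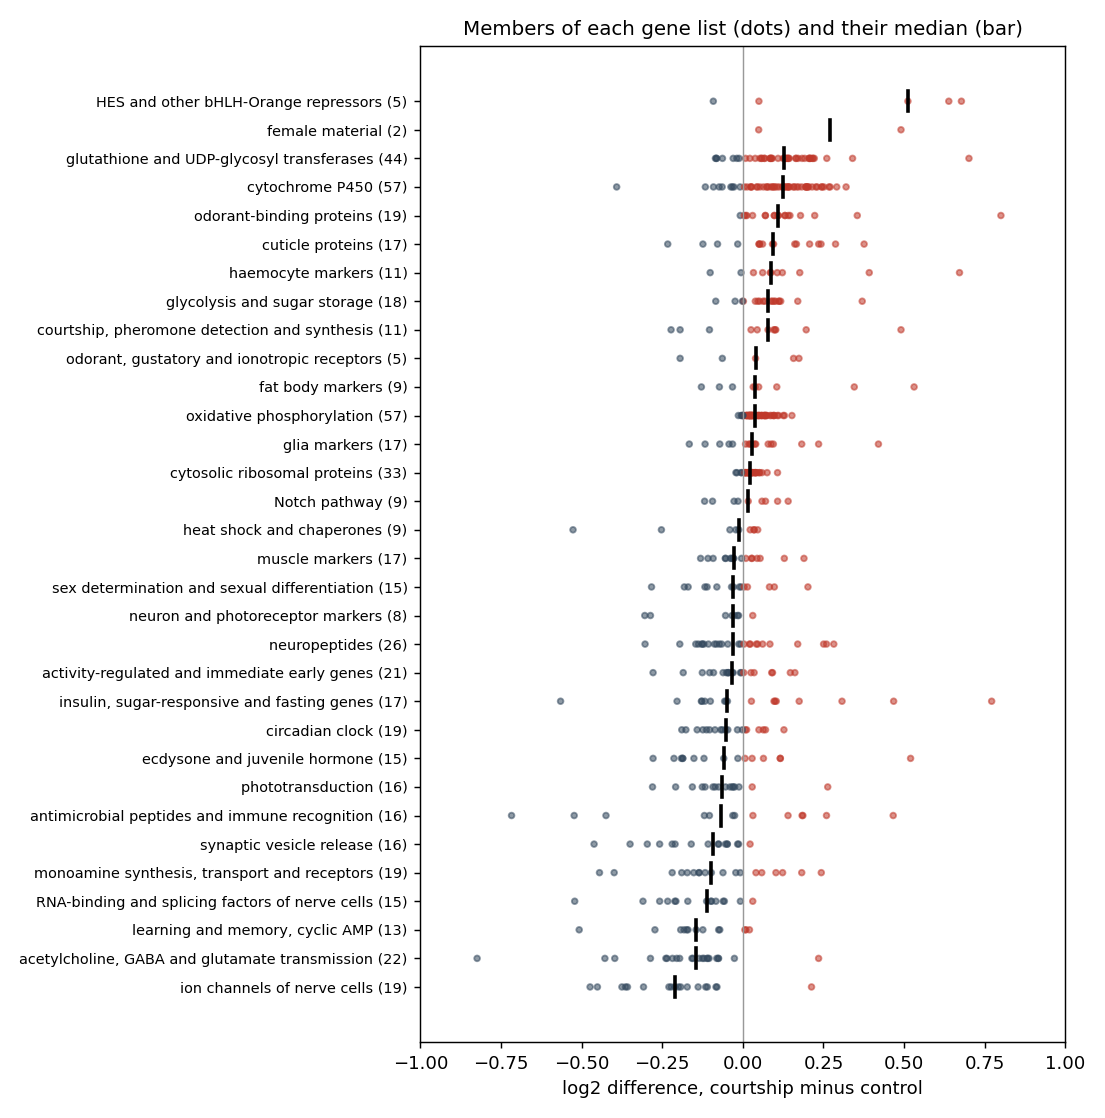
Log2 difference (courtship minus control, horizontal axis) of every tested member of 32 gene lists, with the number of members in brackets; dots are genes, red if higher and dark if lower, and black bars are list medians. The axis ends at 1 on either side and 4 members lie outside it. The repressor list has the highest median (0.51) and the ion channels the lowest (-0.21).

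Values of other cell types and of RNA quality ran beside these lists. Over all genes 56.4% were higher and 43.6% lower, and 2.09% were lower at an unadjusted p under 0.05. In RNA from whole heads, fewer cells of a type and less RNA per cell cannot be told apart. Of the 8 measured neuron and photoreceptor markers 7 were lower, 2 of them at an unadjusted p under 0.05 (Appl and futsch), with a median of -0.03 and array means of 11.30 to 11.71 in courting and 11.46 to 11.77 in control pools. That median was -0.11 without courtship array 2, -0.01 without courtship array 5 and -0.08 with the 3'-to-5' ratio in the model. Of 17 glia markers 12 were higher (median 0.03, array means 10.42 to 10.74 against 10.32 to 10.71), of 17 muscle markers 7 were higher (median -0.03, 10.51 to 10.78 against 10.62 to 10.74), and of 9 fat body markers 6 (median 0.04, 11.31 to 11.57 against 11.26 to 11.46). Of 11 haemocyte markers 9 were higher (median 0.09), with courtship arrays 4 and 5 at 8.88 and 8.82 and the other 8 arrays at 8.34 to 8.58; the median was 0.03 without courtship array 4. The muscle median turned to 0.03 without courtship array 4, and the glia median was 0.001 without control array 1. Their part in the differences was not tested. With that 3'-to-5' ratio in the model the medians were -0.21 for ion channels, -0.27 for the transmission genes, -0.24 for vesicle release and -0.21 for RNA-binding factors. Without it they were -0.21, -0.15, -0.09 and -0.11. The monoamine median was -0.02 with the ratio and -0.10 without it, and the neuropeptide median turned from -0.03 to 0.03. The part of RNA quality in the differences was not tested, and the low mean ratio of courtship array 2 came from 1 control transcript.

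Genes of detoxification, odorant binding and energy metabolism were mostly on the higher side, by small amounts. Over all genes 56.4% were higher, with a median of 0.02. Of 57 measured cytochrome P450 genes 48 were higher (median 0.13), although the leading member by p, Cyp28d2, differed by -0.39 ± 0.09. Of 44 glutathione and UDP-glycosyl transferase genes 37 were higher (median 0.13), GstD10 by 0.26 ± 0.09 and Ugt36E1 by 0.18 ± 0.07. In the authors' other processings GstD10 was 0.24 higher in GeneSpring GC-RMA but only 0.01 to 0.06 higher in dChip PM, dChip PM-MM and MAS5. Ugt36E1 was 0.04 higher in MAS5 and 0.094 to 0.185 higher in the dChip and GeneSpring values. Without courtship array 5 the medians of both lists were 0.05, and without courtship array 2 they were 0.18 and 0.20. Array means overlapped between the arms, at 8.481 to 9.052 in courting and 8.554 to 8.783 in control pools for P450 genes. For transferases they were 8.594 to 9.117 and 8.601 to 8.908, with courtship array 2 lowest in both lists. The list means of courtship array 5 were the highest of the 10 arrays for P450 genes (9.05) and transferases (9.12), and its mean was the lowest for ion channels, transmission, release and RNA-binding genes.

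Of 19 odorant-binding protein genes 18 were higher, where 56.4% of all genes were, with a median of 0.11 and none at an unadjusted p under 0.05. The list means per array overlapped, at 10.759 to 11.213 in courting and 10.829 to 10.96 in control pools. Obp28a had the largest difference, 0.80 ± 0.44, with courtship arrays 4 (8.39) and 5 (7.86) highest. The median of this list was 0.08 without courtship array 5 and 0.18 without courtship array 2, and 15 to 19 members were higher with 1 array left out. These proteins carry odorants in the fluid around olfactory neurons. Of the odorant, gustatory and ionotropic receptor genes on the array only 5 of 165 were bright enough to be tested. Of 57 oxidative phosphorylation genes 52 were higher with a median of 0.04, of 33 ribosomal protein genes 29 with a median of 0.02, and of 18 genes of glycolysis and sugar storage 15 with a median of 0.08. These are small shifts, which leaving out 1 array moved to between 0.02 and 0.06, 0.01 and 0.04, and 0.05 and 0.08, and the ribosomal median is close to that of all genes. The array means of these lists also overlapped between the arms.

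Genes tied to sex and to nerve-cell activity had small differences that went both ways. fru, at 9.70 to 10.11 in courting and 10.01 to 10.31 in control pools, differed by -0.17 ± 0.09 on its bright probe set and by 0.11 ± 0.28 on the other tested one. dsx differed by -0.01 ± 0.13. Of 15 sex determination genes 5 were higher and 10 lower, with a median of -0.03; only retn, a transcription factor with a role in courtship circuits, had an unadjusted p under 0.05 (-0.28 ± 0.09). Of 21 activity-regulated genes, which in other settings are induced within minutes of nerve-cell firing, 7 were higher and 14 lower, with a median of -0.03. Hr38, a nuclear receptor gene used as a marker of such firing, read 8.05 to 8.56 in courting and 8.47 to 8.84 in control pools, a difference of -0.28 ± 0.12, and sr (stripe) differed by -0.01 ± 0.17. The clock list, apart from the dimmer cwo probe set, had 6 genes higher and 13 lower of 19 (median -0.05). Leaving out 1 array moved these 3 medians to -0.05 (sex determination, without control array 5), -0.01 (activity-regulated, without control array 2) and -0.02 (clock, without courtship array 5). fit, a fat body gene that is sex-biased in the head, read 11.95 to 13.02 against 11.90 to 12.35 and was 0.49 ± 0.18 higher, with its highest values on courtship arrays 4 and 5. daw, an activin-like ligand, was 0.31 ± 0.10 higher.

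The largest differences in size were of immune genes and of others that varied widely between pools. AttD, an attacin-type antimicrobial peptide, read 3.60, 10.69, 4.01, 6.52 and 4.45 in courting and 11.30, 12.15, 6.65, 2.53 and 10.97 in control pools. Both arms held pools with low and with very high signal, and the difference of -2.87 ± 1.94 was within that spread. AttD had the largest spread within arms of all tested probe sets, a pooled SD of 3.54 where the median probe set had 0.16. CecB (a cecropin) and Def (a defensin) differed by -1.54 ± 1.07 and -1.42 ± 1.03, and CG33462 by -1.92 ± 1.33. All 4 genes were high on courtship array 2 and control arrays 1 and 2. Over the 16 measured immune genes 6 were higher and 10 lower (median -0.07), and the median was 0.005 without control array 1 and -0.22 without control array 3.

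CG4269 read 5.68, 7.03, 4.61, 6.78 and 6.13 in courting and 8.58, 9.82, 6.16, 5.50 and 9.60 in control pools. The arms overlapped because control arrays 3 and 4 were low, and the difference was -1.89 ± 0.86 (limma adjusted p = 0.888). Within letters it was lower in courting males each time, by -2.90 in A, -2.79 in C, -1.55 in D and -2.82 in H. AttD, CecB and Def were also lower in all 4 letters, as were 6.06% of tested probe sets. In D the differences of CecB and Def were only -0.06 and -0.04. Drsl5, a drosomycin-like peptide gene, went the other way and was 0.47 ± 0.16 higher. TotC, a Turandot stress gene, read 13.33 on courtship array 1 and 9.66 to 11.38 on the other arrays, a difference of 0.73 ± 0.57. cac, the calcium channel gene cacophony, had a probe set that read 3.16 on courtship array 2, 2.69 on control array 3 and 5.70 to 9.71 elsewhere. Its difference was -1.58 ± 1.36, which was -2.88 without control array 3, -0.80 without courtship array 2, -0.085 with array weights and -0.11 with the 3'-to-5' ratio in the model. Heat shock genes were 4 higher and 5 lower of 9 (median -0.01, and 0.05 without control array 5), with Hsp26 at 9.83 on control array 5 and 6.60 to 7.42 on the other 9 arrays.

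**Figure D4:**
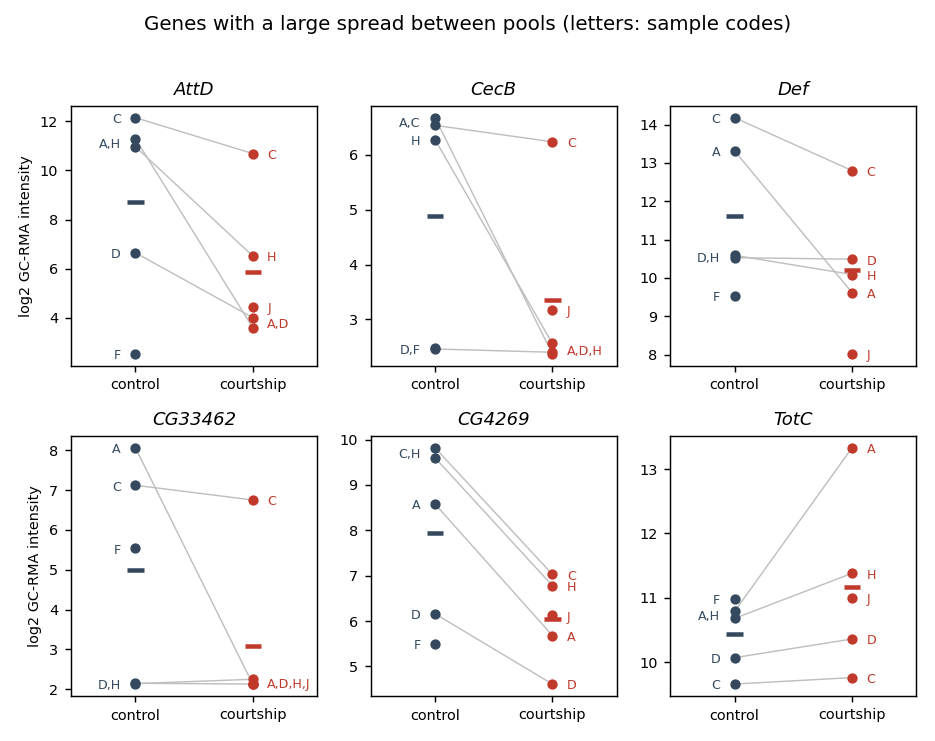
Log2 GC-RMA intensity (vertical axes) of 6 genes with a large spread between pools, drawn as dots with their code letters, arm means as thick bars, and grey lines between pools with the same letter. AttD ranges from 2.53 to 12.15 over the control pools and from 3.60 to 10.69 over the courting pools, and both arms have a high pool C. All 4 lines run downward for CG4269, and also for AttD, CecB and Def.

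Taking the shared letters as pairs left 8 arrays. Courting pools were higher than their control in all 4 letters for 521 probe sets (5.83%) and lower in all 4 for 541 (6.06%). limma with the letter as a block called 0 (0%). Its smallest adjusted p was 0.540, and 379 probe sets had an unadjusted p under 0.05. hry was higher by 0.56 in A, 0.90 in C, 0.82 in D and 0.65 in H. E(spl)mbeta-HLH was higher by 0.43, 0.47, 0.40 and 0.89 in the same order, and sug by 0.41, 0.20, 0.75 and 1.25. Of these 3 genes hry was the most even across letters, while the sug difference was largest in H. Sh differed by -0.89 in A and by -0.27 to -0.39 in the other letters. Of the 30 leading genes 14 on each side had 1 sign in all 4 letters. This follows in part from ranking them by p on arrays that include these 8. Rim did not keep 1 sign, at 0.04 in H.

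List medians were mostly nearer 0 within letters. With the letter as a block the median was -0.16 for ion channels, -0.10 for the transmission genes, -0.07 for learning genes, -0.05 for RNA-binding factors and -0.02 for vesicle release. It was 0.03 for P450 genes, 0.04 for transferases and 0.09 for odorant-binding proteins, and the monoamine median turned to 0.01. The repressor list kept a median of 0.44. These values rest on 8 arrays, without courtship array 5 and control array 4.

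The authors' other processings kept the direction of all 30 leading genes, where 64.4% of tested probe sets had 1 sign in all 5. The 5 share the same arrays, and the 30 genes were picked by p in 1 of them, so this is no separate support. In dChip PM, limma called hry (adjusted p = 0.0184) and E(spl)mbeta-HLH (adjusted p = 0.0225), 2 probe sets in all (0.0224%). In dChip PM-MM it called hry alone (adjusted p = 0.0454; 0.0112%), and in MAS5 and GeneSpring GC-RMA it called 0 (0%), with 432 and 461 probe sets at an unadjusted p under 0.05. The size of the hry difference ran from 0.50 in MAS5 to 0.68 in R GC-RMA, and that of E(spl)mbeta-HLH from 0.53 in dChip PM to 0.79 in MAS5. Sh ranged from -0.35 to -0.56. CG11529 had the widest range in log2 units among the genes named in this paragraph, at 0.78 to 0.81 in both GC-RMA versions and MAS5 but 0.18 in dChip PM and 0.14 in dChip PM-MM, and the difference of the leading cwo probe set was 0.28 in MAS5. geko, 0.29 higher in R GC-RMA, was 0.04 higher in MAS5.

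**Figure D5:**
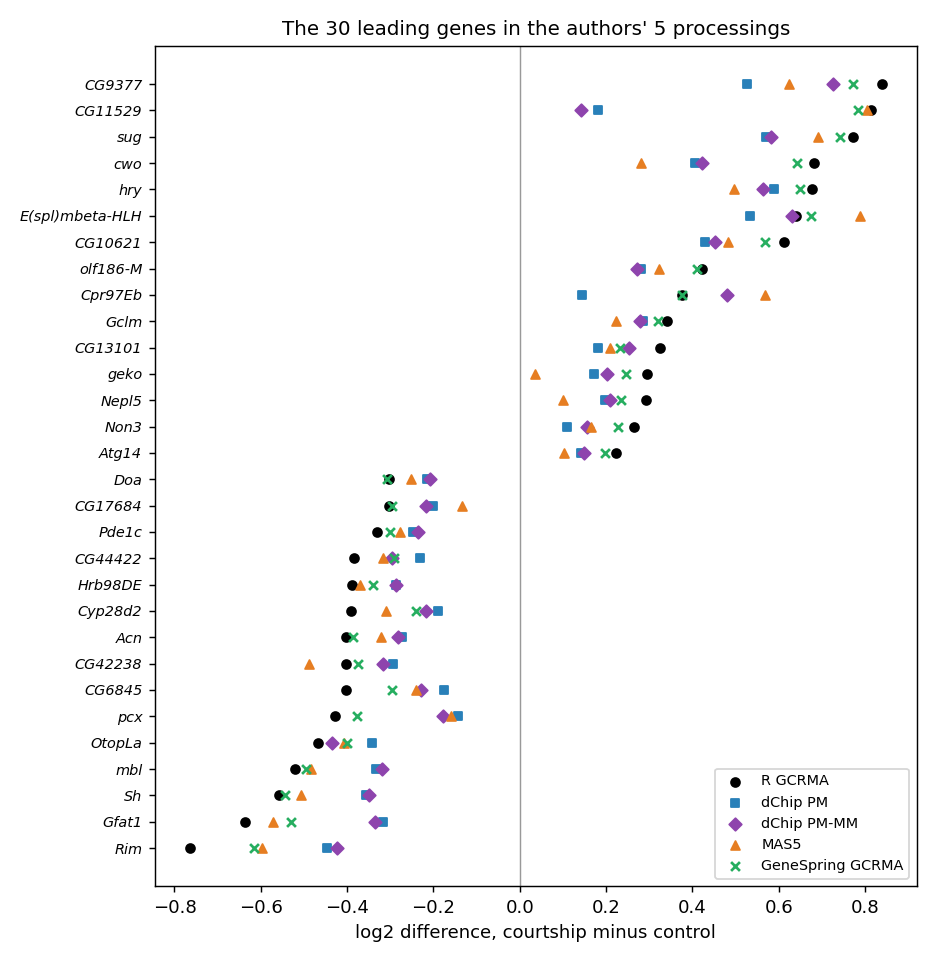
Log2 difference (courtship minus control, horizontal axis) of the 30 leading genes in the authors' 5 processings, 1 symbol for each processing. All 30 keep their side of 0; hry lies at 0.50 to 0.68, and CG11529 at 0.14 and 0.18 in the dChip values against 0.78 to 0.81 in the other 3.

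The study's remaining arm, titled male, carries the same treatment label as the courtship arm and was not used in the tests above. Male arrays 1 and 5 had 3'-to-5' ratios of 2.52 and 1.85, against 1.31 to 1.69 on the other 3. Its pools read 11.06 to 11.73 for hry, a range that takes in the control pools (11.49 to 11.69) and lies below every courting pool. For E(spl)mbeta-HLH they read 7.17 to 7.59, between most control and most courting pools, and for sug 8.68 to 9.01. For Sh the male arm read 8.84 to 10.08 and for OtopLa 7.63 to 8.35, on the side of the courting pools or beyond.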

How the data were processed

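The authors processed each array in 5 ways, and what they deposited are linear intensity values, judged by their range. GCOS 1.2 and GCRMA are listed in the submitters' processing notes; other versions were not given in the sources used. GC-RMA shrinks the spread of dim probe sets. Here log2 was taken (746 PM-MM values below 1 were set to 1), 183 AFFX controls were left out, and 8932 of 18769 probe sets with a mean log2 of at least 4 over the 10 arrays were tested with limma 3.58.1 in R 4.3.3 (lmFit, eBayes; two-sided; Benjamini-Hochberg, 0.05; 8 residual degrees of freedom). The script was tested on simulated data. Figures used Python 3.11.15 and matplotlib 3.10.9. Symbols came from the platform annotation; of the tested probe sets, 7894 matched 1 symbol, 228 matched several and 810 matched none, which gave 7311 genes. No sequences or coordinates were used. The number of arrays limits the precision.

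Named genes were the 15 of smallest p on each side (per gene, the probe set with the smallest p), the 5 largest on each side, the 6 on each side with the largest mean difference within letters among those with 1 sign in all letters and processings, up to 3 leading members of each of 33 lists, and a fixed set including hry, fru, dsx, Hr38 and sr. List counts use each gene's brightest probe set. The genes, lists, model and rule were chosen with earlier results of these data known. Alternatives were the other 4 processings, filters, scalings, blocks, variance settings, array weights, the 3'-to-5' covariate, all 15 arrays and each array left out.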

Additional observations from a re-analysis of the deposited data

Results flagged for a closer look

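For 78 named genes the 5 pools of each arm were examined for a single pool far from the rest, and 9 of 156 groups (5.8%) held one; chance alone gives about 1 in 20. Of these, 3 were on courtship array 2 and 3 on control array 5. On courtship array 2, CG33462 read 6.75 where the other courting pools read 2.13 to 2.25, CecB read 6.24 against 2.37 to 3.17, and geko, a gene first known from olfactory behaviour, read 7.68 against 7.87 to 7.93. On control array 5, Drsl5 read 13.01 against 12.55 to 12.69, Doa read 11.81 against 11.91 to 11.95, and KaiR1D read 5.98 against 6.65 to 6.79. GABA-B-R3 read 9.14 on control array 1 and 8.76 to 8.81 on the other control arrays, and cac read 2.69 on control array 3 and 8.58 to 9.71 on the others. dsx read 8.88 on courtship array 4, below 9.12 to 9.16 on the other courting pools.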

How the results depend on the processing

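limma called 0 probe sets in the 10-array comparison and under each alternative run, leaving out each array included, except dChip PM (2 calls) and dChip PM-MM (1 call). Within letters, leaving out 1 letter at a time gave 0 to 1 calls, the 1 being CG4269 without letter D (adjusted p = 0.00409). The replicate block gave 0 calls, with 682 probe sets at an unadjusted p under 0.05 against 397; deviations of same-numbered pools correlated at 0.04 to 0.49 and those of same-letter pools at 0.07 to 0.49, so neither is shown to pair pools. That unadjusted count was 255 with all 15 arrays, 1140 with array weights, 1231 with the 3'-to-5' covariate, and 1155, 255 and 192 when courtship arrays 2, 3 and 5 were left out in turn; the cause was not tested. The smallest adjusted p ran from 0.109 to 0.855 with 1 array left out. Of the values of 78 named genes, each followed under 24 or 25 alternatives, 17 turned their sign. Ugt37B1 was -0.087 in dChip PM and -0.059 in dChip PM-MM, and Srg1 was 0.061 with the covariate. For dsx the values were 0.034 in MAS5, 0.03 with the letter block and -0.088 to 0.066 with an array left out. For sr they were 0.115 in MAS5, 0.131 with the letter block, 0.044 with array weights and -0.096 to 0.097 with an array left out. With 5 pools per arm, much larger differences than the median standard error of 0.10 were not called. Those of hry (0.68 ± 0.09), CG9377 (0.84 ± 0.22) and Rim (-0.77 ± 0.20) are examples in the R GC-RMA values. A gene that was not called is therefore not shown to be unchanged.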

Other observations

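Further genes, some of them members of lists described above, had an unadjusted p under 0.05 and did not pass the adjusted threshold. Lsp2, a larval serum protein gene expressed in fat body, was 0.53 ± 0.19 higher in courting males, and Jhe, which encodes juvenile hormone esterase, 0.52 ± 0.23 higher at a low level. egh (egghead), a glycosyltransferase gene, was 0.49 ± 0.18 higher on one probe set and 0.03 higher on its other. Appl, the fly homologue of the amyloid precursor protein, differed by -0.30 ± 0.13, and futsch, a microtubule-associated protein of axons, by -0.29 ± 0.10. ND-18, a subunit of respiratory complex I, was 0.15 ± 0.06 higher. Had2 was 0.86 ± 0.31 higher, with courtship array 5 at 6.71 and control arrays at 4.42 to 5.43.

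Lists not described above had small medians, where 56.4% of all genes were higher with a median of 0.02. Of 17 cuticle protein genes 13 were higher and 4 lower in courting males (median 0.09), and of 11 genes of courtship and pheromone detection and synthesis 8 were higher and 3 lower (median 0.08, and 0.03 without courtship array 4). Insulin, sugar-responsive and fasting genes, sug among them, were 8 higher and 9 lower of 17 (median -0.05), and ecdysone and juvenile hormone genes 6 higher and 9 lower of 15 (median -0.06). With 1 array left out the insulin median turned to 0.03 (without control array 5) and the hormone median to 0.02 (without control array 2), and the cuticle median was 0.17 without courtship array 2. Of 18 genes on the array that mark female material, such as eggs and yolk, 16 averaged 2.02 to 2.62 and were too dim to be tested. The other 2 were fit and Yp3, a yolk protein gene, which differed by 0.05 ± 0.11.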
